A study of Homo sapiens with 4 samples.

Results

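The 10 glycolysis genes described here are GPI, PFKFB3, ALDOA, TPI1, GAPDH, PGK1, ENO1, PKM, LDHA and LDHB, and their RNAs held 24 of the 14858 peaks in a list of RNA immunoprecipitated with YTHDF2. Members were given by name, and their peaks were found by place. A peak in an exon or intron went to the gene of that exon or intron, and any other peak went to the gene whose hg38 span held its summit. The list covers HCCLM3, an established human hepatocellular carcinoma line of high metastatic potential, of wild-type genotype and with no treatment in the labels. The labels give 4 libraries, 2 of YTHDF2 RIP and 2 of input. RIP-seq pulls a protein down with its bound RNA and sequences that RNA beside the input it came from. The authors' list gives 1 value per peak and none per library, so no spread between replicates can be given here and no difference between libraries was tested. No pulldown with a control antibody is among the 4 libraries, so a peak is an excess over input. The cells were sequenced in bulk, so a low level in all cells and a high level in few cannot be told apart.

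Glycolysis breaks glucose down to pyruvate in the cytosol, and lactate dehydrogenase converts pyruvate to lactate. Many tumours, liver cancer among them, run the pathway at a high rate even when oxygen is present. The mRNAs of its enzymes are among the abundant mRNAs of most cultured cells. YTHDF2 is a cytosolic reader of N6-methyladenosine (m6A) that is best known for bringing a deadenylase to methylated mRNA, which is then degraded.

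All 10 genes had at least 1 called peak, meaning a peak with the caller's q of 0.01 or less. Among all 6955 protein-coding genes with a peak in the list, 53.2% had one. The members were chosen with their peaks known, so this count describes them and supports nothing about the pathway. At a q of 0.05 or less all 10 were called again, against 61.2% of genes. When a −log10 q of 5 or more was asked for, the count was 9, without PFKFB3, against 31.5% of genes. With a called peak of at least 2-fold it was 6, against 42.6%, and ALDOA, TPI1, GAPDH and PGK1 dropped out. Of the 24 peaks, 19 were called, against 37.3% of all peaks in the list.

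Enrichment of these RNAs was mostly modest, and LDHB stood above the others. Folds are the authors' ratios of the RIP pileup at the summit to a background, with 1 added to each. At few fragments a fold is therefore below the plain ratio of fragments to background. That background is scaled input, at the same base or over a wider stretch around it, or a genome-wide level. The members' folds ran from 1.40 for a TPI1 peak to 5.04 for LDHB. The median best-peak fold over the 10 genes was 2.41 (log2 1.27), against 2.61 (log2 1.38) over all protein-coding genes with a peak. That order turned when peaks on fewer than 20 RIP fragments were left out. The members' median stayed at a log2 fold of 1.27, against 1.12 over all genes. The order also turned with exon and UTR peaks of main chromosomes only, where it was 1.36 for the 7 members left, against 1.27.

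**Figure D1:**
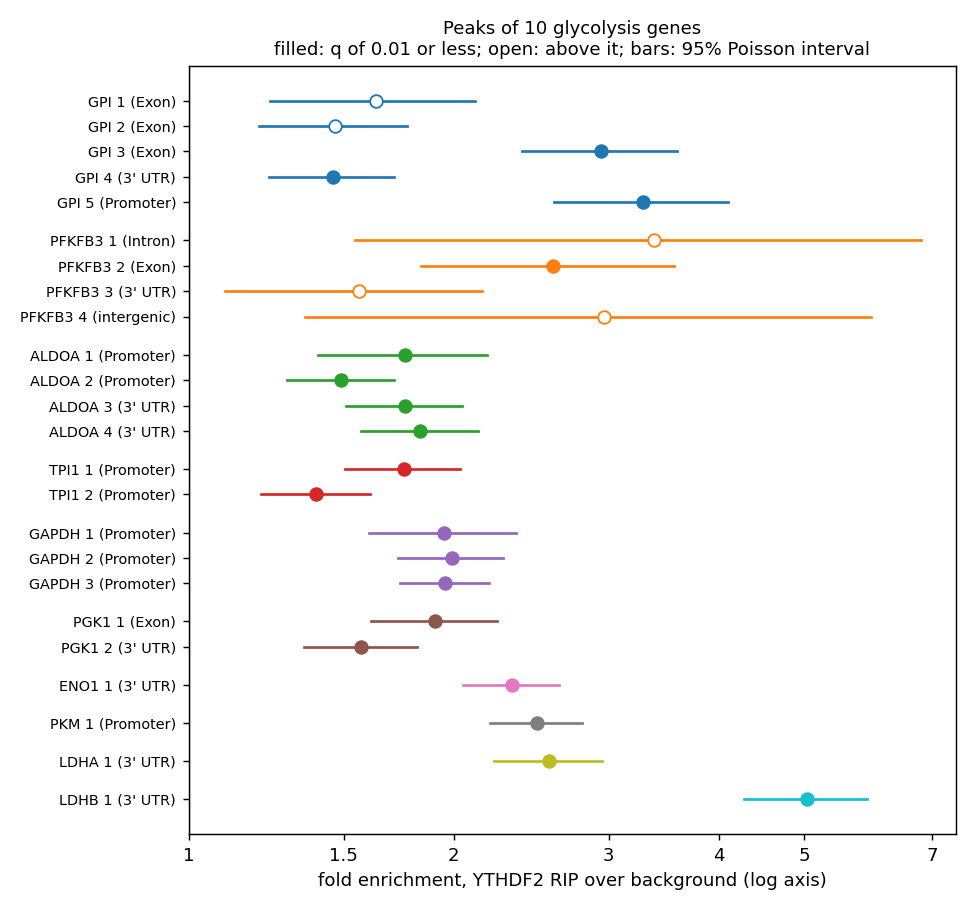
Fold enrichment of YTHDF2 RIP over background (log axis) for the 24 peaks of the 10 genes in pathway order, numbered within each gene along the chromosome, with exact Poisson 95% intervals as bars and peaks above a q of 0.01 drawn open. LDHB sits at 5.04-fold, and the 3 GAPDH peaks lie between 1.95 and 1.99.

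The peaks of these genes held many fragments. The fold and the p-value of a peak together fix the number of RIP fragments and the background at its summit. These numbers belong to the combined libraries. The 24 peaks had a median of 150.5 RIP fragments over a background of 76.1, against 12 fragments over 3.0 for all peaks. A background of 70 or more was found at 14 of the 24 peaks, against 8.53% of all peaks. Folds in the list were lower where the background was high. The list holds only peaks that the caller kept, and a low fold on few fragments is not kept. This order of folds therefore describes the list only. The median fold of all peaks was 2.61 at a background under 2 and 2.56 at 2 to 20. At 20 to 70 the 7 member peaks had a median of 1.95, against 1.92 for all peaks. At 70 or more the 14 member peaks had a median of 1.80, against 1.65 for all. Set against all peaks whose background lay within a factor of 1.2, 16 of the 24 peaks were above the median fold. Intervals given below are exact Poisson 95% intervals of the RIP fragments with the background held fixed. They cover counting error only and leave out the spread between replicates and the error of the background. Whether PCR copies are among the fragments is not known.

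The upper steps of the pathway, GPI and PFKFB3, had uneven peaks. GPI, glucose-6-phosphate isomerase, makes fructose 6-phosphate from glucose 6-phosphate, and its gene lies at chr19:34359718-34402413 (hg38). It had 5 peaks, of which 3 were called. The highest, at chr19:34402136-34402519, had 76 RIP fragments over a background of 22.4, or 3.29-fold (interval 2.60 to 4.10), and its summit lay 118 bp from the gene's 3' end. An exon peak at chr19:34396426-34396915, in exon 13 of 18, had 96 fragments over 31.9 and 2.94-fold (2.39 to 3.59). The called 3' UTR peak between them, at chr19:34400183-34400536, had 148 fragments over a background of 101 and 1.46-fold (1.23 to 1.71). Peaks within GPI thus differed by more than their counting intervals, and the peak with the most fragments had the lowest fold. The remaining pair, in exons 6 and 12, had 1.63-fold over 55 fragments and 1.46-fold over 106 and was not called.

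PFKFB3 makes fructose 2,6-bisphosphate, the activator of phosphofructokinase, and so sets the pace of glycolysis without being a step of it. Its gene, at chr10:6144921-6326637, was the longest of the 10 and its peaks held the fewest fragments. The called peak lay in exon 10 of 15, at chr10:6221613-6221993, with 36 fragments over 13.3, or 2.59-fold (1.84 to 3.56). Its highest fold, 3.38, belonged to a peak in intron 1 of 14 that rested on 6 fragments over 1.07 (1.55 to 6.79) and was not called. A 3' UTR peak of 1.56-fold on 35 fragments and a peak of 2.97-fold on 6 fragments were not called either. The list classes the last of these as intergenic, while the RefSeq span of PFKFB3 includes it.

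From aldolase to phosphoglycerate kinase all best-peak folds were under 2. ALDOA, aldolase A, cleaves fructose 1,6-bisphosphate, and its gene lies at chr16:30064279-30070420. All 4 of its peaks were called. Their folds were 1.76, 1.49, 1.76 and 1.83 from the 5' to the 3' side, on 81, 200, 172 and 169 RIP fragments over backgrounds of 45.5, 134, 97.2 and 91.8. The 4 intervals, which together span 1.29 to 2.18, overlapped. Overlap does not show that the folds are equal, and differences along ALDOA were not tested. ALDOA shares this span with LOC112694756, a RefSeq gene on the same strand, and their reads cannot be told apart here.

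TPI1, triosephosphate isomerase, interconverts the products of aldolase, and it lies at chr12:6867420-6870948. Its peak at chr12:6869080-6869601 had 175 fragments over 99.3, or 1.76-fold (1.51 to 2.03), and that at chr12:6870533-6871088 had 193 over 138, or 1.40-fold (1.21 to 1.61). Both were called, and 1.40 was the lowest fold of the 24 peaks. Of all 6955 protein-coding genes ranked by best-peak fold, TPI1 was number 6049, the lowest place among the 10. Among peaks of like background its peaks ranked 263 of 620 and 137 of 178 by fold.

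GAPDH, glyceraldehyde-3-phosphate dehydrogenase, carries out the oxidative step and is a common reference gene in expression work. It lies at chr12:6534517-6538371 and had 3 called peaks of nearly equal fold. From the 5' side they were 1.95 (1.60 to 2.35), 1.99 (1.73 to 2.28) and 1.95 (1.74 to 2.19). RIP fragments differed more, at 107, 208 and 292, over backgrounds of 54.4, 104 and 149. The last is the highest fragment number of the 24 peaks, against a maximum of 324 in the whole list. How the caller treated reads that start at the same base is unknown. A limit on such reads could hold down the fragments and folds of abundant RNAs. Whether it lowered the folds of GAPDH, PKM (270 fragments) and ENO1 (250) relative to LDHB (153) was not tested.

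The 3'-most GAPDH peak ranked 8 by fold among the 137 peaks with a background within a factor of 1.2 of its own. The median fold of those peaks was 1.53. The 5'-most GAPDH peak, also of 1.95-fold but on a lower background, ranked 433 of 1078 on the same measure, where the median was 1.82.

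PGK1, phosphoglycerate kinase, makes the pathway's earlier ATP, and its gene lies at chrX:78104248-78129295. Its exon 4 peak, at chrX:78114023-78114423, had 146 fragments over 76.1, or 1.91-fold (1.61 to 2.24). The 3' UTR peak, at chrX:78126076-78126876, had 181 over 115, or 1.57-fold (1.35 to 1.82). Both were called, and their intervals overlapped.

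From enolase onward each gene had 1 peak, at or near the 3' end of the gene, and its fold was higher than those of ALDOA, TPI1, GAPDH and PGK1. ENO1, enolase 1, forms phosphoenolpyruvate and lies at chr1:8861000-8878686. Its 3' UTR peak at chr1:8860835-8861204 had 250 fragments over 107, or 2.33-fold (2.05 to 2.64). PKM, pyruvate kinase of muscle and tumours, makes pyruvate and the later ATP and lies at chr15:72199029-72231591. Its peak at chr15:72198872-72199514 had 270 fragments over 108, or 2.48-fold (2.20 to 2.80). The −log10 q was 27.3 for ENO1 and 33.9 for PKM, ranks of 210 and 132 among protein-coding genes. Among peaks of like background, ENO1 ranked 57 of 502 by fold and PKM 29 of 481.

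The lactate dehydrogenase pair differed in fold. LDHB encodes the H subunit, which is prominent in heart, and LDHA the M subunit, which is prominent in muscle and many tumours. The 3' UTR peak of LDHB, at chr12:21635207-21635543, had 153 fragments over a background of 29.6, or 5.04-fold (4.28 to 5.90). That of LDHA, at chr11:18407373-18408007, had 197 over 76.1, or 2.57-fold (2.22 to 2.95). LDHB thus had 0.777 times the RIP fragments of LDHA over 0.388 times the background, and its fold was 1.96 times that of LDHA. The intervals of the 2 peaks did not overlap. Whether this ratio exceeds the spread between replicates was not tested, because the list holds no value per library.

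LDHB ranked 14 among protein-coding genes by −log10 q, with 51.8, and LDHA ranked 229 with 26.1. By fold of the best peak LDHB ranked 265 of 6955. Among the 909 peaks of like background its fold was number 5, and on the same measure LDHA was number 55 of 934. The interval of LDHB lay above those of all 18 other called peaks of the 10 genes and overlapped only those of the PFKFB3 peaks with 6 fragments.

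**Figure D2:**
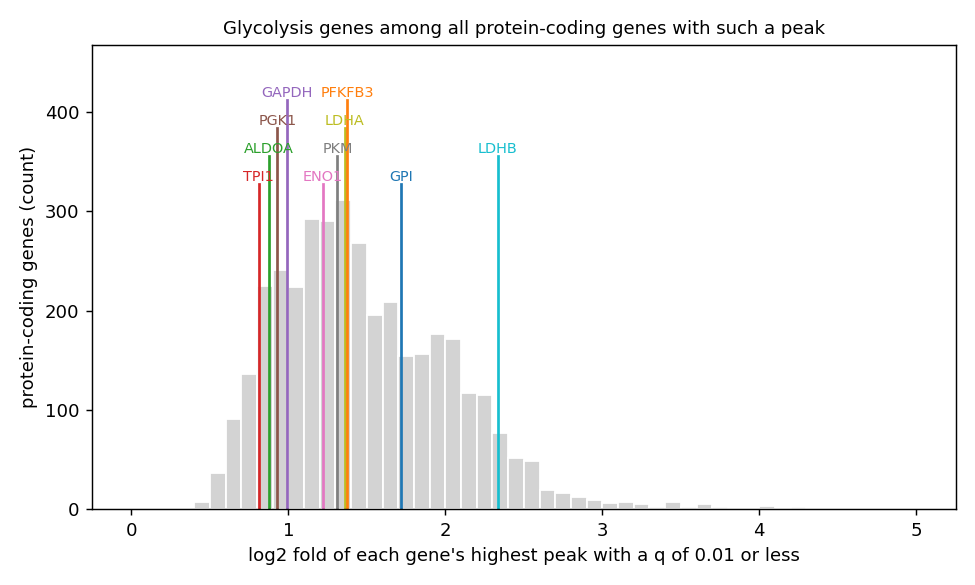
Histogram of the log2 fold of the highest called peak of each protein-coding gene (genes per bin of 0.1), with a coloured line for each of the 10 glycolysis genes. TPI1, ALDOA, PGK1 and GAPDH lie below 1, which is 2-fold, and LDHB lies in the upper tail at 2.33.

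Most of the genes had a peak near the 3' end. In 7 of the 10 genes a called summit lay within 500 bp of the annotated 3' end, against 37.4% of the 3017 protein-coding genes with a called peak and a known strand. Counted by peak, 7 of the 19 called peaks (36.8%) had such a summit, against 28.2% of called peaks of protein-coding genes. Of the 10 genes, 6 had 2 or more peaks, against 40.3% of protein-coding genes with a peak. The distances were 59 bp in LDHB, 110 bp in ENO1, 115 bp in PKM, 118 bp in GPI, 261 bp in ALDOA, 372 bp in TPI1 and 443 bp in GAPDH. The nearest called summit of LDHA lay 675 bp from the end, that of PGK1 3097 bp and that of PFKFB3 104943 bp. Distances run to the end of the whole RefSeq span. In PFKFB3 the peak classed as 3' UTR lay 91753 bp before that end, so the called peak is nearer to the end of a shorter annotated mRNA. The same 7 genes had a peak that ran past the annotated end, by 106 to 184 bp. GAPDH and TPI1 span only 3.86 and 3.53 kb, so the 500 bp are a larger part of them than of GPI or PKM. The 500 bp limit was set after seeing the data, and no test was made.

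**Figure D3:**
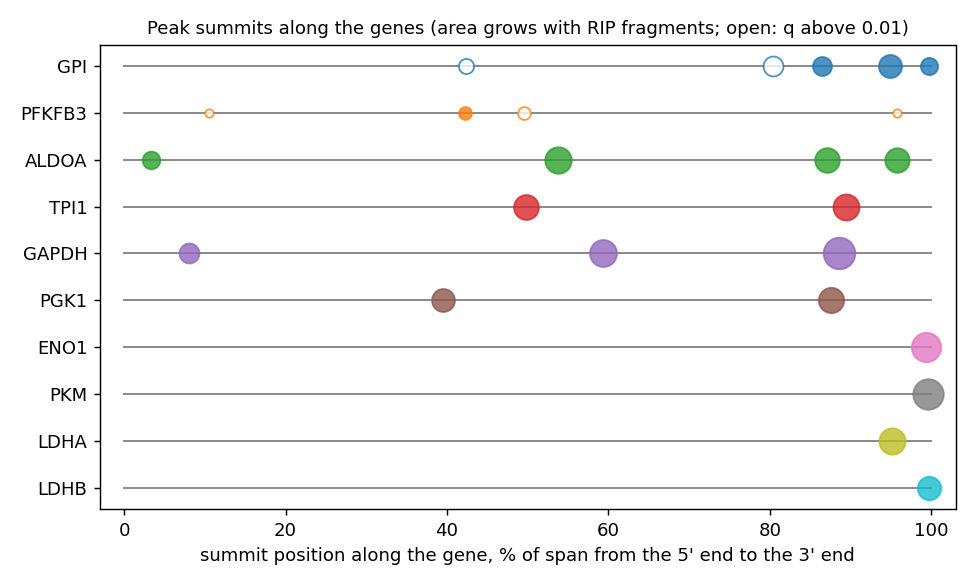
Position of each of the 24 summits as a percentage of the gene's genomic span (introns included), from the 5' end at the left to the 3' end at the right. Point area grows with the RIP fragments, and peaks above a q of 0.01 are open. ENO1, PKM, LDHA and LDHB have their only peak beyond 95% of the span.

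By the list's own feature classes 8 of the 24 peaks (33.3%) were 3' UTR peaks, against 27.6% of all peaks, 5 were exon, 1 was intron, 1 was intergenic and 9 (37.5%) were promoter peaks, against 17.1% of all. The order of the 3' UTR shares turned among called peaks, with 36.8% of the members' peaks against 37.6% of all, and among peaks on 20 or more RIP fragments, with 36.4% against 46.0%. The promoter class holds any peak within 3 kb of an annotated start site, whichever gene that site belongs to. Of the 9 promoter-class peaks, 4 had their summit within 500 bp of the 3' end of their own gene, those of PKM, GPI, TPI1 and GAPDH. The PKM peak earned the class from the start site of GRAMD2A, 1085 bp away, and the GPI peak from that of PDCD2L.

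The gene name deposited with a peak, that of the nearest start site, differed from the gene that held the peak for 11 of the 24, against 45.1% of all peaks inside a gene. The peak of ENO1 is listed under MIR6728, that of LDHA under LDHC and that of PKM under GRAMD2A, so a search by deposited name finds no peak of these 3 genes. In the same way 4 of the 5 GPI peaks are listed under PDCD2L. Under PGK1 the list also gives 2 peaks that lie in ATP7A, a copper transporter, with 3.81-fold on 8 fragments and 2.15-fold on 26.

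A pair of promoter-class peaks overlapped the 250 bases before a RefSeq start site, and the bases shown are the part of that window under each peak. The 5'-most GAPDH peak covered chr12:6535014-6535149 of it, plus strand, and ended before the start at 6535264. The 5'-most ALDOA peak covered chr16:30064435-30064496, plus strand, and ran on past the start at 30064497. Both stretches lie inside the spans of their genes, downstream of other start sites. They were searched on both strands for GGACT, a common core of m6A sites, and capitals mark a match, here on the strand opposite to the RNA.
GAPDH: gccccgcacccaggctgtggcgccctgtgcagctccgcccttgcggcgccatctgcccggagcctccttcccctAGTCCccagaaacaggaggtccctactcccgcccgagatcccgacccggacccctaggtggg
ALDOA: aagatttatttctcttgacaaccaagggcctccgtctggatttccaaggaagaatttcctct
GAPDH held 1 match, to the reverse complement, and ALDOA none. The same stretch held GGACT on either strand in 24.2% of 22199 promoter windows of protein-coding genes for the GAPDH position and in 10.4% for the ALDOA position. The rest of both peaks, which includes the summit of the GAPDH peak, and the RNA under the other 22 peaks were not searched. Nothing is said here of m6A motifs in them.

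The promoters of LDHA and LDHB are shown because these are paired subunits of 1 enzyme that differed in fold in the RIP. Capitals mark ACGTG on either strand, the core that hypoxia-inducible factor binds in many glycolysis genes, with CACGTG counted as 1 site where both strands match. The RIP measured RNA, and no peak of either gene overlapped these bases. They are the 250 bases before a RefSeq start site of build GRCh38.p14, at chr11:18394313-18394562 on the plus strand for LDHA and chr12:21657843-21658092 on the minus strand for LDHB.
LDHA: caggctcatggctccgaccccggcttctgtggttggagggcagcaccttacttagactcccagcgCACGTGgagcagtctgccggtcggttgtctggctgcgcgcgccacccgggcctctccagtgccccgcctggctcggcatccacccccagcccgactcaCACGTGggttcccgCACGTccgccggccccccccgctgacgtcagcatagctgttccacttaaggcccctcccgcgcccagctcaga
LDHB: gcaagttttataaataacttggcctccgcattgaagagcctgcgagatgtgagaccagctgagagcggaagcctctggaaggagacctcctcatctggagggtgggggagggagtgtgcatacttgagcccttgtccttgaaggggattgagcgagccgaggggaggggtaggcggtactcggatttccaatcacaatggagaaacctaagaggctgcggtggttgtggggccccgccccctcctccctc
LDHA held 3 such sites before this start, starting 185, 87 and 73 bases before it, and none before its other listed start. LDHB held none. Windows with 3 or more sites made up 0.423% of the 22199. Of the 10 genes, 7 had ACGTG before at least 1 of their listed starts, against 25.3% of 15843 protein-coding genes. Those without it were LDHB, PKM and ENO1. Counted by window, 9 of the members' 15 windows held it, against 20.2% of all.

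Genes linked to the pathway were looked up in 8 lists, chosen with earlier results of these data known. Together they name 87 genes, of which 36 had a peak and 20 had a called one. The called genes are 55.6% of those with a peak, against 53.2% of all protein-coding genes with one. By list this share ran from 33.3% for glucose and lactate transport to 80% for the transcription factors. Each list had only 2 to 8 genes with a peak. Over the 36 the best peaks had a median log2 fold of 1.15, against 1.38 over all protein-coding genes with a peak. The median over all genes was 1.12 when peaks on fewer than 20 RIP fragments were left out. That setting was not applied to the 36, so the order of these medians is not settled. A gene without a peak has no value here, so absence gives no level.

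**Figure D4:**
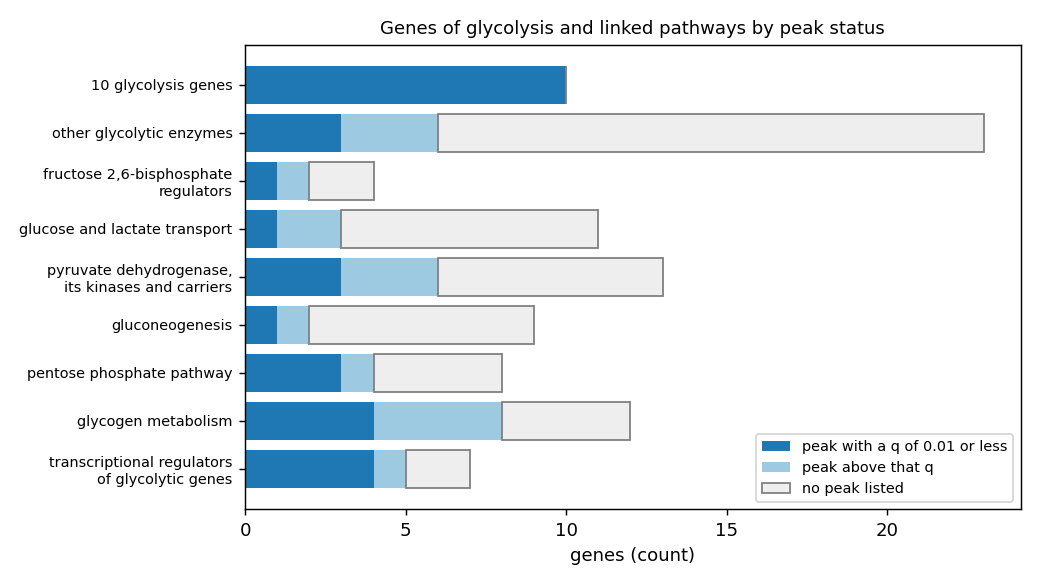
Number of genes with a called peak (q of 0.01 or less), with a peak above that q and with no listed peak, for the 10 glycolysis genes and 8 lists of linked genes. All 10 glycolysis genes have a called peak, and 17 of the 23 other glycolytic enzymes have none listed.

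Of 23 other glycolytic enzymes and isoenzymes, 6 had a peak and 3 a called one. HK1, hexokinase 1, had 1.96-fold over 93 fragments in an exon, and HKDC1, a hexokinase relative, had 1.81-fold over 60. ENO4, an enolase known from sperm, had 2.19-fold over 34 in its 3' UTR. PFKM and PFKP, subunits of phosphofructokinase, had peaks of 2.07-fold on 18 fragments and 2.44-fold on 3 that were not called. Among the other regulators of fructose 2,6-bisphosphate, PFKFB4 had a called intron peak of 4.42-fold on 11 fragments, and the peaks of TIGAR were not called. Of 11 genes of glucose and lactate transport 3 had a peak, and only BSG, the chaperone of lactate transporters, was called. The BSG peak had 2.21-fold over 153 fragments in the 3' UTR.

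On the way from pyruvate into mitochondria, 6 of 13 genes had a peak and 3 were called. PDP2, a phosphatase of pyruvate dehydrogenase, had 2.15-fold, the subunit PDHA1 2.05-fold and the subunit DLD 1.93-fold. The kinase PDK3 had 3.91-fold on 5 fragments and was not called. In gluconeogenesis 2 of 9 genes had a peak and 1 was called, G6PC3, a glucose-6-phosphatase, with 1.98-fold.

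The pentose phosphate pathway, which branches from glucose 6-phosphate, had peaks in 4 of 8 genes and called peaks in 3. TKT, transketolase, had 2.80-fold over 118 fragments. PGD, 6-phosphogluconate dehydrogenase, had 1.60-fold over 230.

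In glycogen metabolism 8 of 12 genes had a peak and 4 were called. UGP2, which makes UDP-glucose, had 3.03-fold over 101 fragments, the primer protein GYG1 2.63-fold over 40, and the phosphorylase PYGB 2.22-fold over 155. The branching enzyme GBE1 had a called 3' UTR peak of 2.49-fold over 41, beside 6 intron peaks that were not called. Of 7 transcription factors that act on glycolysis genes 5 had a peak and 4 were called. MLXIP had 2.56-fold over 80 fragments, HIF1A 2.48-fold over 145, EPAS1 2.39-fold over 120 in its called peak and SP1 1.70-fold over 167. Antisense genes are annotated at HIF1A, and the sources used here do not say how strand was handled.

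Processed pseudogenes copy several of these mRNAs, and reads shared with them are uncertain. RefSeq lists 91 pseudogenes named after the 10 genes, and 6 held a summit. Of these, 2 were called, TPI1P1 with 3.42-fold over 42 fragments and PGK1P1 with 3.62-fold over 10. The other 4 rested on 3 to 5 fragments. Both called pseudogene peaks had a higher fold and fewer fragments than the peaks of TPI1 and PGK1 themselves.

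As a check of the label, the hepatocyte and hepatoma markers were looked up. Of 11, KRT8 and KRT18 had called peaks, APOB had 1 that was not called, and 8, ALB and AFP among them, had none listed. Of 5 blood and endothelial markers HBB was called, on 8 fragments. CD68, on 123 fragments, and PECAM1, on 4, had peaks that were not called. Of 4 stromal markers only LUM had a peak, on 27 fragments, and it was not called. A peak list gives no expression level, so these counts neither bear out nor contradict the label.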

How the data were processed

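The 4 libraries, 2 of YTHDF2 RIP and 2 of input, were grouped by the labels. Nothing says that they came from separate cultures. Per the submitters' processing notes the authors used HISAT2 and MACS2 on hg38. Versions, options and the way the libraries were combined: not given in the sources used here. Depth per library is unknown. Per the file headers, the deposited list gives each peak's fold enrichment (a ratio), −log10 p and −log10 q, width and summit offset in bp, and the distance to the nearest start site. The deposited score was 10 times the −log10 p, rounded down.

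RIP fragments k and background b at each summit were solved from fold = (k + 1) / (b + 1) and the Poisson p of more than k. Every −log10 p was met within 0.000189, and 100% of 2000 simulated peaks were recovered (Python 3.11.15, SciPy 1.17.1). The simulated peaks were made with the same formulas, so this checks the arithmetic only. Their backgrounds did not reach the highest ones of the members. Names, gene spans and promoter sequences came from RefSeq GRCh38.p14. Of 8686 deposited genes, 99.3% overlapped their RefSeq span. Strand came from the promoter table.

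All 10 members were named, and of each other list every gene with a called peak, up to the 5 of highest fold. An item that this rule takes is not reported here. Other genes, pseudogenes among them, were named after their values were seen. Members and lists were chosen with earlier results of these data known. No test was made on lists. The 500 bp limit and the factor of 1.2 were set after seeing the data.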

Additional observations from a re-analysis of the deposited data

How the results depend on the processing

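No paired analysis was possible because the list holds 1 value per peak for the combined libraries, and for the same reason no replicate could be left out. With the deposited gene name, 6 of the 10 glycolysis genes kept a called peak, since ENO1, LDHA and PKM had no peak under their own name and the best peak of GPI was then 1.63-fold and not called. PGK1 then took a peak inside ATP7A and reached 3.81-fold, and the members' median log2 fold was 0.99 over 7 genes, against 1.38 over all genes. A fold of at least 2 also left 6 genes. The median was 1.27, against 1.12 over all genes, at 20 or more fragments, and 1.36, against 1.27, with exon and UTR peaks only. Those 2 settings turned the order of members and all genes. At a −log10 q of at least 5, called genes numbered 1 for other glycolytic enzymes, 2 for glycogen metabolism, and 0 for the fructose 2,6-bisphosphate regulators, pyruvate dehydrogenase and gluconeogenesis. With the deposited gene they numbered 0 for the fructose 2,6-bisphosphate regulators, 5 for pyruvate dehydrogenase and 1 for the pentose phosphate pathway. With the best peak taken by −log10 q, or the deposited gene, only the best folds of GPI and PGK1 left their counting intervals, both under the deposited gene. The PFKFB3 folds on 6 fragments are the least certain.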
